A study of Homo sapiens with 50 samples.

Results

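The genes described here encode the inhibitors of the cyclin-dependent kinases (CDKs): *CDKN1A*, *CDKN1B*, *CDKN1C*, *CDKN2A*, *CDKN2B*, *CDKN2C*, *CDKN2D* and *CDKN3*. They were chosen by name, and every array feature that the array annotation assigned to one of them was taken, which gave 11 features for these 8 genes out of 34127 features and 24044 gene names on the array. RNA was measured in the human line H1299, which derives from a non-small cell carcinoma of the lung, and in H1299*shRAD9*, the same line carrying an integrated retroviral short hairpin RNA (shRNA) against *RAD9*, which the labels describe as RAD9 depleted. Both lines were grown on concentric Mylar dishes, and RNA was taken 4 h after a sham exposure (CTL) or a dose of 1 Gy of α particles. In an exposed dish, the cells on the thin surface were hit directly (D) and those on the thick surface were unirradiated bystanders (B). The dishes were sorted by micronuclei, a sign of chromosome damage, into dishes with positive bystanders (DBP for the irradiated cells, BP for the bystanders) and dishes with negative bystanders (DBN and BN). Each of the 10 groups of line and exposure held 5 biological replicates, each hybridized alone to 1 array. The labels name no H1299 cells with an empty vector, so that the shRNA and the derivation of the line cannot be told apart, and they do not say which of the stable transfectants gave a sample.

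CDK inhibitors hold back the cell cycle by binding the kinases that drive it. The CIP/KIP proteins p21 (*CDKN1A*), p27 (*CDKN1B*) and p57 (*CDKN1C*) bind cyclin-CDK complexes of several kinds, and p21 is best known for its part in the arrest of damaged cells. The INK4 proteins p16 (*CDKN2A*, a locus that also encodes ARF), p15 (*CDKN2B*), p18 (*CDKN2C*) and p19 (*CDKN2D*) bind CDK4 and CDK6 and keep the retinoblastoma protein active. *CDKN3* encodes a phosphatase that removes the activating phosphate of CDK2 and is itself a transcript of proliferating cells.

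An Agilent array reads a gene through a probe of 60 bases, so the sequence and position of the probe decide which part of the transcript a value stands for. The probes of *CDKN1A*, *CDKN1B* and *CDKN3* are shown that read in frame through coding sequence of the protein, because *CDKN1A* was read at this place alone and because the features of *CDKN1B* and *CDKN3* gave different calls. They are, 5′ to 3′ on the strand of the transcript and with positions on hg19, the probe of *CDKN1A* at chr6:36652178-36652237 (plus strand), the coding probe of *CDKN1B* at chr12:12871119-12871178 (plus strand), and the probes of *CDKN3* at chr14:54866634-54866693 and, across an intron, chr14:54878384-54882635 (both plus strand).
CDKN1A: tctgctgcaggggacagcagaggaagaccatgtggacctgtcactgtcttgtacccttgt
CDKN1B, coding: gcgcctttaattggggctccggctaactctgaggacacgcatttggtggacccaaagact
CDKN3, 5′: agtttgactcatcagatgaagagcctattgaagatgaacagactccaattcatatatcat
CDKN3, 3′: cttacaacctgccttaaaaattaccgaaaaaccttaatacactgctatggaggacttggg

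The brighter *CDKN1B* feature lay downstream of the coding one, at chr12:12874940-12874999. *CDKN1C* was read at chr11:2904903-2904962 (minus strand), *CDKN2B* at chr9:22008979-22009038 (minus strand), *CDKN2C* at chr1:51439963-51440022 (plus strand) and *CDKN2D* at chr19:10677226-10677285 (minus strand). *CDKN2A* was read at chr9:21968039-21968098 and chr9:21970901-21970960 (both minus strand). It was not examined whether these features part the p16 and ARF transcripts of the locus. A gene with more than 1 feature is given below by its brightest feature unless the other is named.

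*CDKN2C* was called after irradiation and *CDKN2D* had lower values in the same samples without a call, and the 250 bases before a transcription start of each are shown from RefSeq (GRCh38.p14). Capitals mark GC boxes (the letters GGGCGG or CCGCCC), to which factors of the SP1 family are known to bind. *CDKN2C* has 3 annotated starts, of which the one shown held 5 GC boxes, counting overlaps, and the other two held 0 and 1.
CDKN2C, chr1:50968456-50968705 (plus strand): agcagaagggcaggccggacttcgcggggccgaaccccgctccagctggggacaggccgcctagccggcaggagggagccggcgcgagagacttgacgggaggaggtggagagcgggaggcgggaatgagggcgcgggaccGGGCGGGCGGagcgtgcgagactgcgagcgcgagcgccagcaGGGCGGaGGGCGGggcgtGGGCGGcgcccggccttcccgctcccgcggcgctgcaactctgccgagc
CDKN2D, chr19:10568980-10569229 (minus strand): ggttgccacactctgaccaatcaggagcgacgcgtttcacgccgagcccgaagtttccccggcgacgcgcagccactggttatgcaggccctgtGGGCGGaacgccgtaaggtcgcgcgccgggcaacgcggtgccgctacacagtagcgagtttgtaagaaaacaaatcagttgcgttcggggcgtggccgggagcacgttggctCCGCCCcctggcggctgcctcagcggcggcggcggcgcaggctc

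Promoter windows were found for 7 of the 8 genes, *CDKN1C* excepted. Of these 10 windows, 7 held a GC box, and 42.6% of all 35116 windows of the same length did. The letters TTTCGCGC, TTTGGCGC, TTTCCCGC and TTTGCCGC, forms of the E2F motif, were in 2.79% of all windows, read on both strands, and in 0 of the 10. A match describes the letters of these windows and nothing more.

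Levels are given as log2 of the processed intensity after the median of all features on the same array was subtracted, so that 0 is the level of the median feature. All 8 genes passed the criterion on background. A further criterion required a 1.3-fold difference from a feature's own median in at least 20% of the arrays. The features of *CDKN2A* and *CDKN3* did not meet it, and these genes are given from the fit of 20100 features without it, while the other 6 genes (7 features) are given from the fit of 12206 features with it. A feature was counted as changed, here called, at p under 0.005 between lines or under 0.006 between exposures together with a false discovery rate under 10%. The features of 7 genes were well above background on all 50 arrays. The *CDKN1A* feature reached this on 47, and it missed it on 2 arrays of H1299*shRAD9* CTL and on 1 of H1299*shRAD9* BP.

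Across the 50 arrays, between 55.5% and 83.7% of the features were well above background, the highest value being that of H1299 DBN replicate 1. The correlation between 2 arrays ranged from 0.901 to 0.996. The *RAD9A* feature read 4.01 ± 0.13 (SD, n = 5) in H1299 CTL and 3.65 ± 0.19 in H1299*shRAD9* CTL, a difference of −0.36 (95% CI −0.62 to −0.10, adjusted p = 0.0561) that did not pass the test, and in the exposed groups the difference lay between −0.34 and 0.06. These values are of RNA at a single feature, and the paper reports the depletion of RAD9 at the protein level, by Western blot. The intermediate filament genes *KRT8*, *KRT18* and *VIM* were well above background on 50 arrays. So was the blood cell gene *PTPRC*, which read 0.11 in H1299 CTL and 1.31 in H1299*shRAD9* CTL, whereas the endothelial gene *PECAM1* was above background on 2 arrays and the fibroblast genes *COL1A1* and *DCN* on 8 and 44. H1299 DBP, DBN and BP replicate 2 had the lowest values of a 5′ to 3′ index, which takes, for 3483 genes with more than 1 feature, the level at the 5′-most one minus that at the 3′-most one and then the median, at −1.73, −1.61 and −1.60. H1299 DBP replicate 1 followed closely at −1.58, so that the index alone does not part these arrays from the rest. H1299 DBN replicate 2 had the lowest mean correlation with its own group (0.934). Beside several H1299 results the value without replicate 2 is therefore given as well. Leaving out a replicate number removed its samples from all groups compared, and so from both lines where these were compared.

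The group means of a gene spanned from 0.38 for *CDKN2A* to 1.61 for *CDKN1C* on the log2 scale. When the 10 means of a gene were put in order, nearly all neighbours were closer than the pooled SD of the groups: 9 of the 9 gaps were within it for *CDKN1B*, *CDKN2A*, *CDKN2B*, *CDKN2D* and *CDKN3*, and 8 of the 9 for *CDKN1A*, *CDKN1C* and *CDKN2C*. For *CDKN1C* the wide gap parted the lines, with the highest H1299*shRAD9* mean at 1.81 (DBN) and the lowest H1299 mean at 2.55 (BP). For *CDKN2C* it lay between H1299*shRAD9* CTL (5.99) and H1299 CTL (6.38), the 2 highest means. For *CDKN1A* it lay below all other groups, between H1299*shRAD9* CTL (−1.64) and the next, H1299*shRAD9* BN (−1.27).

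**Figure D1:**
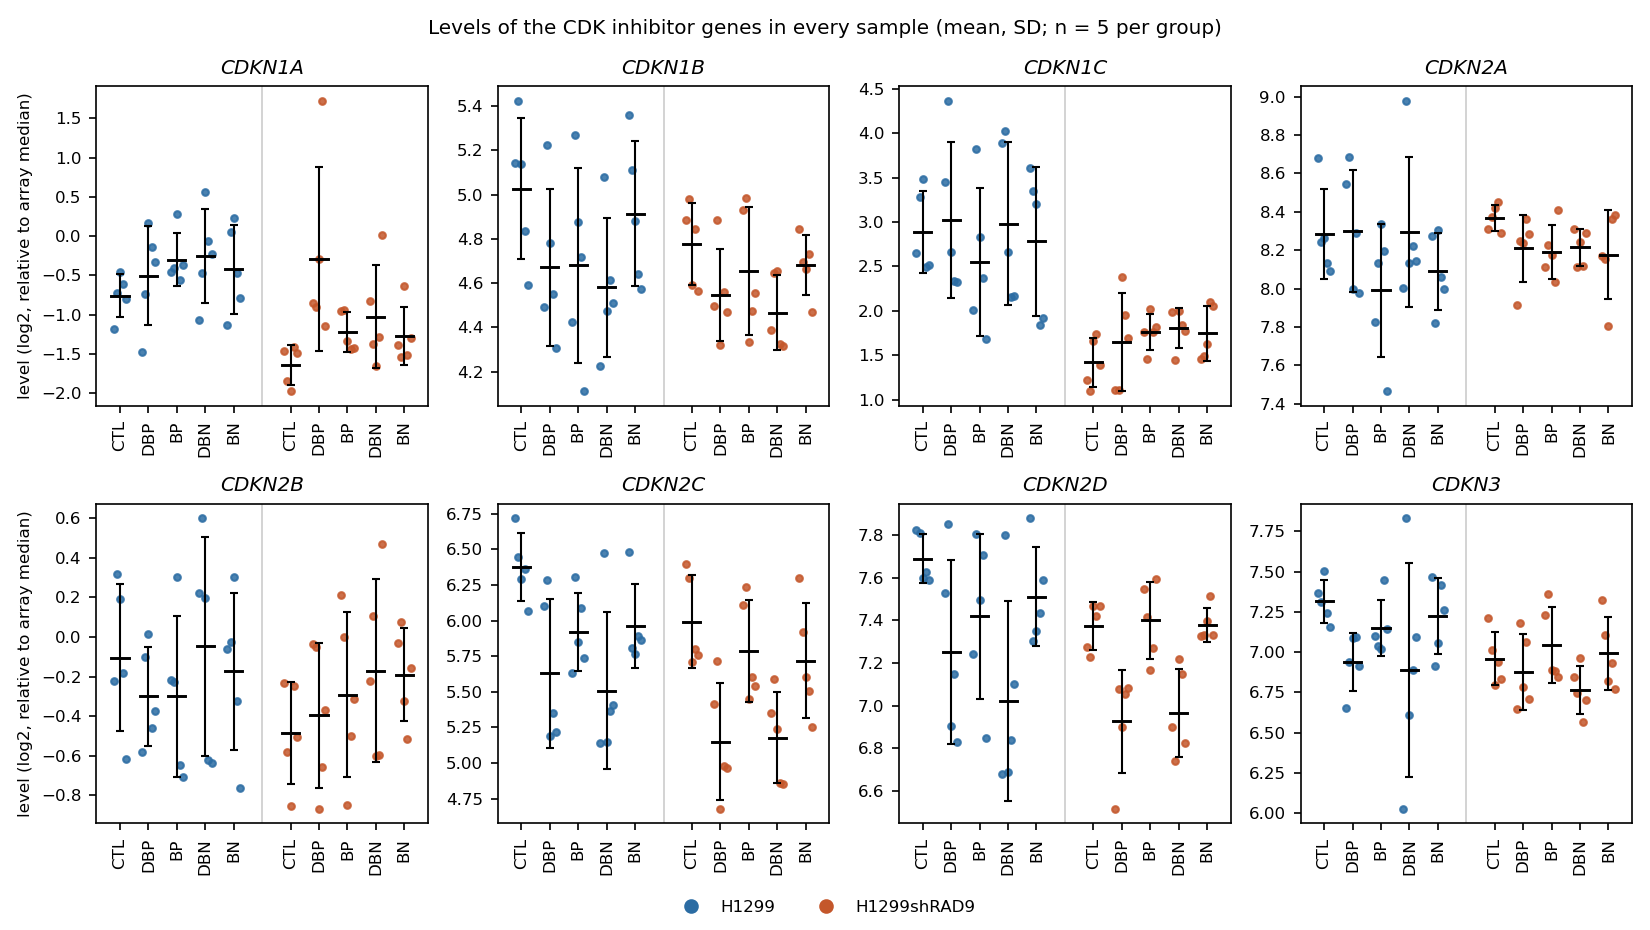
Level of each gene (brightest feature, log2 relative to the array median, y axis) in each of the 50 samples (points) by exposure (x axis), with the mean and SD of 5 samples; blue is H1299 and orange H1299shRAD9. The orange points lie low for CDKN1C, and the CTL points lie high for CDKN2C in both lines; the y axes differ between panels.

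The first question was how the lines differed before irradiation. No slide held controls of both lines, so that line and slide cannot be told apart here. *CDKN1C* and *CDKN1A* of the CIP/KIP family were lower in H1299*shRAD9* than in H1299, and no INK4 gene was called in either direction, except *CDKN2D* under other scalings, as given below. *CDKN1C* read 2.66, 3.29, 3.49, 2.49 and 2.52 in the H1299 controls and 1.22, 1.10, 1.66, 1.73 and 1.39 in the H1299*shRAD9* controls. The highest H1299*shRAD9* value lay below the lowest H1299 value. The difference was −1.47 (SE 0.22, 95% CI −1.95 to −0.99, adjusted p = 0.0017), or a level 2.77-fold lower. *CDKN1A* read −1.19, −0.73, −0.46, −0.61 and −0.80 in H1299 and −1.46, −1.85, −1.97, −1.41 and −1.49 in H1299*shRAD9*. These groups did not overlap either, although H1299 replicate 1 stood close to the H1299*shRAD9* samples. The difference was −0.88 (SE 0.17, 95% CI −1.26 to −0.50, adjusted p = 0.0073), or 1.84-fold lower. Since the feature was dim (mean intensity 116) and missed the well-above-background flag in 2 of the H1299*shRAD9* controls, it was recomputed with another correction for background. With the normexp correction the difference was −0.36 and was not called (adjusted p = 0.0518). That correction added an offset of 50 to all intensities, where the mean intensity was 47.3 in the H1299*shRAD9* controls and 130.5 in the H1299 controls. An offset of this size makes the log2 difference of a dim feature smaller by itself, so the value is no independent check.

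In these controls 1893 of 12206 features were called, 15.5% of those tested, against 2 of the 6 members tested. All 6 members had a difference below 0, and their median was −0.38 where the median of all features was 0.10. *CDKN1B* differed by −0.25 (95% CI −0.63 to 0.12). *CDKN2C* differed by −0.38 (95% CI −0.78 to 0.01) and *CDKN2B* by −0.38 (95% CI −0.81 to 0.04), or −0.25 without replicate 2 and −0.22 without replicate 3. *CDKN2D* differed by −0.32 (95% CI −0.59 to −0.04, adjusted p = 0.085), with no overlap between the groups, and missed the limit on the unadjusted p. It was called under quantile normalization (−0.47, adjusted p = 0.017) and with the normexp correction (−0.46, adjusted p = 0.018). *CDKN2A* differed by 0.09 (95% CI −0.18 to 0.35). Of the features of *CDKN3*, the 5′ one was called at −0.51 (SE 0.12, adjusted p = 0.0176) and the brighter 3′ one was not, at −0.36 (adjusted p = 0.0504).

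The same lines were then compared within each exposure. In DBP, DBN and BN no slide held samples of both lines either. *CDKN1C* was lower in H1299*shRAD9* DBP than in H1299 DBP, with a difference of −1.38 (SE 0.39, adjusted p = 0.0588), and *CDKN1A* was lower in H1299*shRAD9* BP than in H1299 BP, with a difference of −0.92 (SE 0.21, adjusted p = 0.0259). These were the members called, 1 of 6 in DBP, 1 of 6 in BP, and 0 of 6 in DBN and BN, where 6.84%, 7.56%, 5.06% and 8.45% of all features were called. At an unadjusted p under 0.05 there were 2 members each in DBN and BN, again *CDKN1A* and *CDKN1C*, where 22.5% and 28.9% of all features lay under that limit. *CDKN1C* differed by −1.17 in DBN (adjusted p = 0.0984, no overlap) and by −1.04 in BN (adjusted p = 0.0672, or −0.48 with normexp), and both missed the limit on the unadjusted p. With normexp the median difference of all features in BN also moved, from 0.17 to 0.41. *CDKN1A* differed by −0.77 in DBN (adjusted p = 0.203), or −0.41 without replicate 3 and −0.40 with normexp, and by −0.85 in BN (adjusted p = 0.0645). In H1299 DBP the *CDKN1C* values ran from 2.32 to 4.37 with replicate 2 at the top, and those of H1299*shRAD9* DBP from 1.10 to 2.38, so the groups just overlapped. Without replicate 2 the difference in DBP was −0.91 (adjusted p = 0.146), that in BP −0.39 and that in DBN −0.82, none of them called. It was not called without replicate 1 (−1.14, adjusted p = 0.122) or replicate 5 (−1.57, adjusted p = 0.113) either. For *CDKN1A* in BP the groups did not overlap, with H1299 from −0.56 to 0.29 and H1299*shRAD9* from −1.44 to −0.95. Its call was lost without replicate 3 (−0.74, adjusted p = 0.117) or replicate 5 (−0.88, adjusted p = 0.125). In DBP *CDKN1A* differed by 0.21 (95% CI −0.82 to 1.24), an interval that holds differences of either sign. The medians there had the other order, at −0.85 in H1299*shRAD9* and −0.32 in H1299, and the highest H1299*shRAD9* sample read 1.73.

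**Figure D2:**
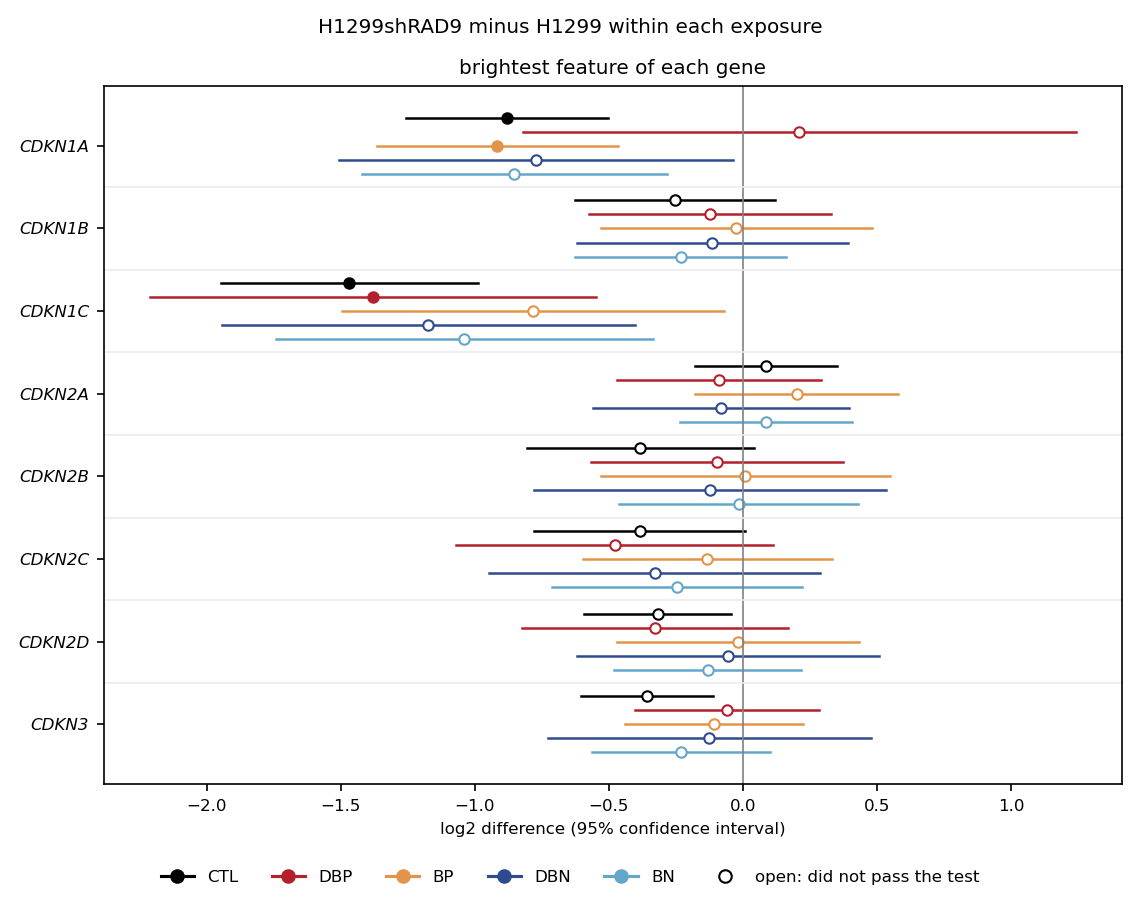
Difference between H1299shRAD9 and H1299 (log2, x axis; points with 95% confidence interval) for the brightest feature of each gene (y axis) within each exposure (colours); filled points passed the test. The CDKN1C points all lie left of 0, between −1.47 and −0.78, and so do those of CDKN1A except in DBP.

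The next question was what irradiation did to these genes within a line. In H1299*shRAD9*, *CDKN2C* fell in both groups of directly irradiated cells, and it was the only member called by its brightest feature in any comparison with CTL in either line. In replicates 1 to 5 *CDKN2C* read 6.39, 6.30, 5.71, 5.80 and 5.76 in CTL and 5.41, 5.71, 4.68, 4.98 and 4.96 in DBP. Every DBP sample was below its own control, here the CTL sample of the same replicate number, and the groups met only at 5.71. The paired difference was −0.84 (SE 0.10, 95% CI −1.08 to −0.61, adjusted p = 0.0461), a level 1.79-fold lower. In DBN the samples read 5.35, 5.59, 5.24, 4.86 and 4.85, all below the lowest control. That difference was −0.81 (SE 0.12, 95% CI −1.08 to −0.54, adjusted p = 0.0386). DBP and DBN were set against the same 5 controls, as were BP and BN.

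The call of *CDKN2C* was more fragile than its size. In DBP the difference stayed between −0.91 and −0.80 when any one replicate was left out, but it was called only without replicate 1 and not without replicate 2, 3, 4 or 5 (adjusted p 0.116 to 0.210). In DBN it lay between −0.90 and −0.76 and was lost without replicate 2 (adjusted p = 0.110) or 4 (adjusted p = 0.118). Without the pairing by replicate number the differences were the same, with adjusted p = 0.288 in DBP and 0.117 in DBN. The arrays came from 13 slides, and within the slides that held both groups the DBP difference was −0.77 and −0.79 and the DBN difference −1.0. With slide as a block the differences were −0.81 (adjusted p = 0.454) and −1.04 (adjusted p = 0.999).

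*CDKN2D*, the other INK4 gene with lower values, did not pass the test. It read 7.27, 7.23, 7.47, 7.42 and 7.47 in the H1299*shRAD9* controls, 6.51, 7.08, 6.90, 7.05 and 7.08 in DBP and 6.90, 6.74, 7.22, 7.15 and 6.82 in DBN. Both irradiated groups lay wholly below the controls. The differences were −0.45 in DBP (95% CI −0.71 to −0.19, adjusted p = 0.128) and −0.41 in DBN (95% CI −0.65 to −0.16, adjusted p = 0.1001). It was called in DBN without the 1.3-fold criterion (adjusted p = 0.0964), and in DBP when the arrays were scaled to the 75th percentile (adjusted p = 0.0697), by quantiles (adjusted p = 0.0708) or in the authors' processed values (adjusted p = 0.0746).

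*CDKN1A* varied most among the directly irradiated H1299*shRAD9* samples. In DBP it read −0.85, −0.91, −0.29, 1.73 and −1.14, each above its own control, with replicate 4 far above the rest. The difference of 1.34 (SE 0.36, 95% CI 0.51 to 2.18, adjusted p = 0.144) was not called, except with all 10 groups in one fit (adjusted p = 0.0527). Without replicate 4 it was 0.90 (adjusted p = 0.168), and within the pair of slides that held both groups it was 3.42 and 0.35. In DBN the values were −0.82, −1.37, −1.65, −1.29 and 0.01, all above their own controls, and the difference was 0.61 (95% CI 0.17 to 1.06, adjusted p = 0.1602), or 0.39 without replicate 5. *CDKN1C* was 0.39 above CTL in DBN (5 of 5 pairs, adjusted p = 0.153) and 0.23 above it in DBP (adjusted p = 0.472). *CDKN2B* stood 0.09 above CTL in DBP and 0.32 in DBN (0.15 without replicate 5), and *CDKN2A* 0.16 and 0.15 below it, with every interval across 0. *CDKN3* did not pass the test with either feature, and its differences lay between −0.20 and −0.08. The brightest feature of *CDKN1B* stood below CTL, at −0.23 in DBP (adjusted p = 0.319) and −0.31 in DBN (adjusted p = 0.242). The members called were 1 of 6 in DBP, where 1.78% of all features were called, and 1 of 6 in DBN, where 4.78% were. At an unadjusted p under 0.05 there were 4 members in DBP and 5 in DBN, against 15.1% and 16.6% of all features. In both, *CDKN1A* was higher and *CDKN1B*, *CDKN2C* and *CDKN2D* were lower, and in DBN *CDKN1C* was higher as well.

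In the bystanders of H1299*shRAD9* no member was called by its brightest feature, in BP with 2.34% and in BN with 0.0492% of all features called. At an unadjusted p under 0.05 there were 2 members in each, *CDKN1A* and *CDKN1C* in BP and *CDKN1C* and *CDKN2C* in BN, against 12.6% and 14.3% of all features. *CDKN2C* read 6.11, 6.24, 5.45, 5.61 and 5.54 in BP and 6.30, 5.92, 5.60, 5.51 and 5.25 in BN, each below its own control by a margin smaller than in the irradiated cells. The differences were −0.20 (95% CI −0.42 to 0.01) and −0.27 (95% CI −0.51 to −0.04, adjusted p = 0.278). *CDKN2D* differed from CTL by 0.03 (95% CI −0.24 to 0.30) in BP and by 0.01 (95% CI −0.20 to 0.21) in BN. *CDKN1C* stood higher by 0.34 in BP (adjusted p = 0.219, 5 of 5 pairs) and by 0.32 in BN (adjusted p = 0.275, 4 of 5 pairs). *CDKN1A* stood higher by 0.42 in BP (adjusted p = 0.294) and by 0.36 in BN (adjusted p = 0.471), each in 4 of 5 pairs, and the latter was 0.12 without replicate 3.

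In H1299 no member was called in any exposure, where 0.0573% (DBP), 0% (BP), 0.0164% (DBN) and 0% (BN) of all features were. An unadjusted p under 0.05 was found for 6.26% of all features in DBP, 5.83% in BP (711 of 12206), 3.47% in DBN and 2.78% in BN (339 of 12205), and for 3 members in DBP, 2 each in BP and DBN, and 1 in BN. *CDKN2C* read 6.72, 6.45, 6.29, 6.36 and 6.06 in CTL, 6.10, 6.28, 5.19, 5.35 and 5.22 in DBP and 5.14, 6.47, 5.15, 5.37 and 5.41 in DBN. All samples but those of replicate 2 lay well below their own control, and replicate 2 lay 0.17 below it in DBP and 0.02 above it in DBN. The differences were −0.75 in DBP (95% CI −1.15 to −0.35, adjusted p = 0.390) and −0.87 in DBN (95% CI −1.45 to −0.28, adjusted p = 0.9996). Without replicate 2 they were −0.90 (adjusted p = 0.250) and −1.09 (adjusted p = 0.603). With all 10 groups in one fit, which pools the spread, both were called (adjusted p = 0.0188 and 0.0024). The bystanders differed from CTL by −0.46 in BP (adjusted p = 0.779, or −0.30 without replicate 1) and by −0.41 in BN (adjusted p = 0.9986), each lower in 5 of 5 pairs.

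*CDKN2D* in H1299 followed a like course, at −0.44 in DBP (95% CI −0.82 to −0.06) and −0.67 in DBN (95% CI −1.21 to −0.13), or −0.56 and −0.84 without replicate 2, and neither was called, except DBN with all 10 groups in one fit (adjusted p = 0.029). *CDKN1A* stood above CTL by 0.25 (DBP), 0.45 (BP), 0.50 (DBN) and 0.33 (BN, or 0.22 without replicate 2), with the lowest adjusted p at 0.763. *CDKN3* was lower in all 5 pairs in DBP, at −0.38 for the 3′ feature and −0.62 for the 5′ feature (adjusted p = 0.795 for both), and at −0.43 and −0.68 in DBN (adjusted p = 0.9999 for both). Without replicate 2 the 5′ feature was at −0.41 in DBP and the 3′ feature at −0.66 in DBN, where without replicate 1 it was at −0.20. *CDKN1B*, *CDKN1C*, *CDKN2A* and *CDKN2B* differed from CTL by −0.45 to 0.14 in the H1299 comparisons.

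Whether the lines differed in their response was tested as an interaction. None of the 12206 features in this fit passed the test for DBP, BP, DBN or BN (0% in each). An unadjusted p under 0.05 was found for 1054, 853, 1107 and 950 of them. With normexp 3 features passed in DBN. For *CDKN2C* the H1299*shRAD9* change minus the H1299 change was −0.09 in DBP (95% CI −0.53 to 0.34) and 0.06 in DBN (95% CI −0.57 to 0.68), so that the drop called in one line was not shown to differ from that in the other. Without replicate 2 these were −0.01 and 0.25. For *CDKN2D* the same quantity was −0.01 (95% CI −0.44 to 0.42) and 0.26 (95% CI −0.28 to 0.81), or 0.04 and 0.45 without replicate 2. Among the brightest features of the members, *CDKN1A* in DBP stood at 1.09 (95% CI 0.14 to 2.04, adjusted p = 0.570) and *CDKN1C* in BP at 0.69 (95% CI 0.13 to 1.24, adjusted p = 0.687). Their order turned over without replicate 4, at 0.70 and 0.82, and without replicate 2 they were 1.12 and 0.90.

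**Figure D3:**
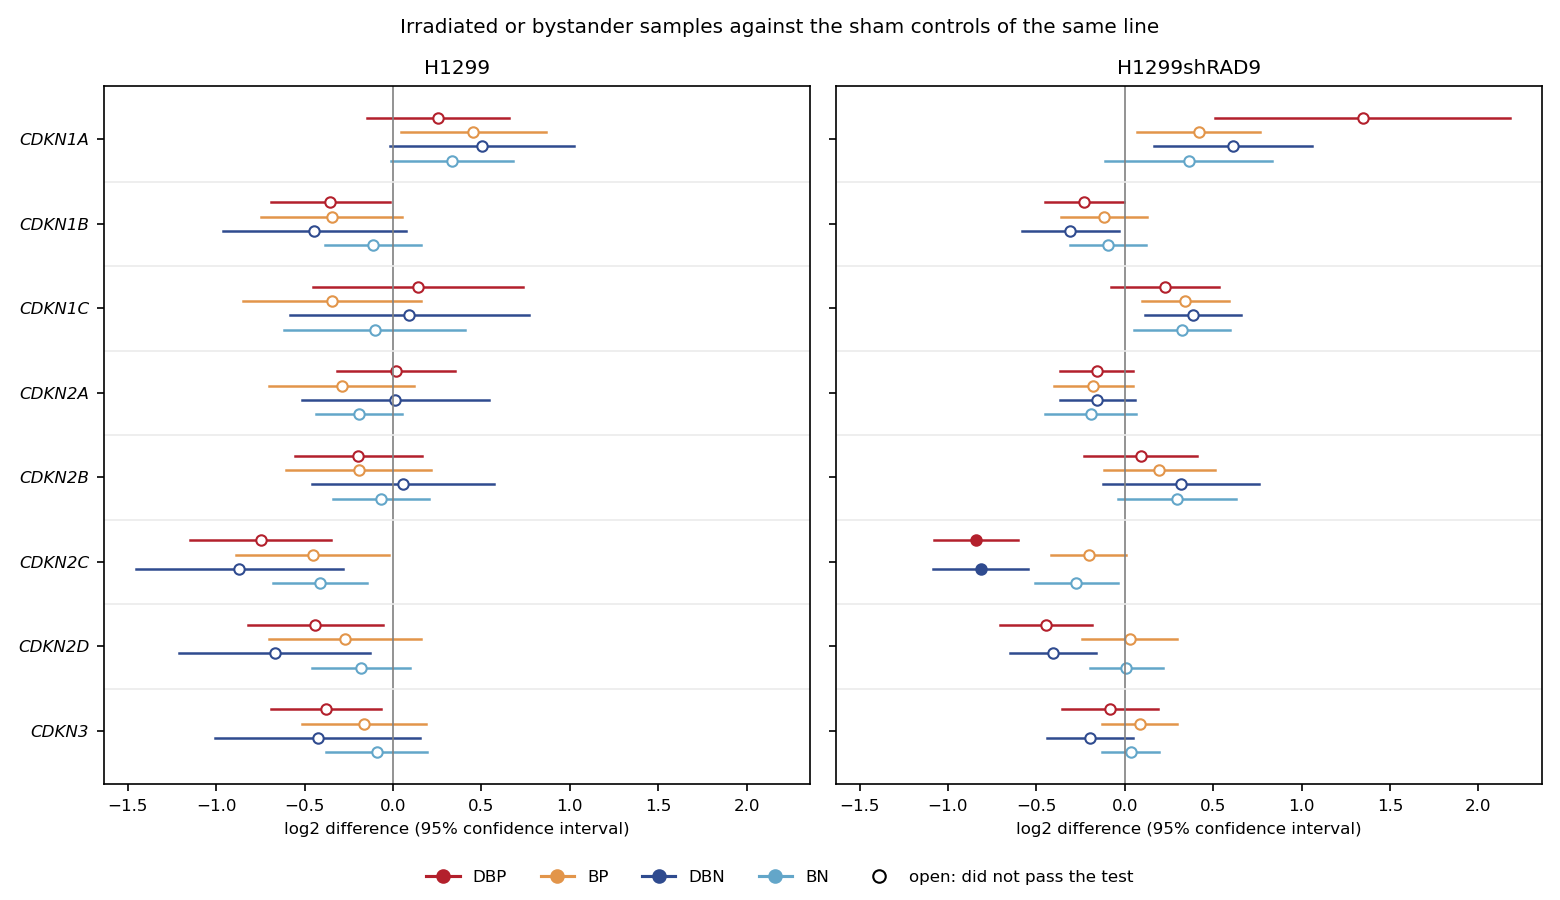
Difference from the sham controls of the same line (log2, x axis; points with 95% confidence interval) for the brightest feature of each gene (y axis), in H1299 (left) and H1299shRAD9 (right); colours are exposures and filled points passed the test. Only CDKN2C in H1299shRAD9 DBP (−0.84) and DBN (−0.81) is filled, and the H1299 points for the same exposures lie at −0.75 and −0.87.

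Directly irradiated cells were also set against the bystanders of the same kind of dish, a comparison that does not use the sham controls. No member passed the test, with 0.0983% of features called for H1299*shRAD9* DBP against BP, 0.131% for DBN against BN, and 0% for both comparisons in H1299. *CDKN2C* in H1299*shRAD9* was lower in DBP than in BP in 5 of 5 pairs, with a difference of −0.64 (SE 0.09, 95% CI −0.85 to −0.43), and its adjusted p of 0.1004 lay just outside the limit. It was lower in DBN than in BN in 5 of 5 pairs, with a difference of −0.54 (95% CI −0.83 to −0.24, adjusted p = 0.641). *CDKN2D* was at −0.48 (adjusted p = 0.718) and −0.42 (adjusted p = 0.825), lower in 5 of 5 pairs and without overlap in both. In H1299 the differences of *CDKN2C* were −0.29 (95% CI −0.77 to 0.18) and −0.45 (95% CI −1.09 to 0.18), or −0.36 and −0.74 without replicate 2 and −0.48 and −0.23 without replicate 1, and 0 members had an unadjusted p under 0.05. Over all features 740 and 411 of 12206 did.

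**Figure D4:**
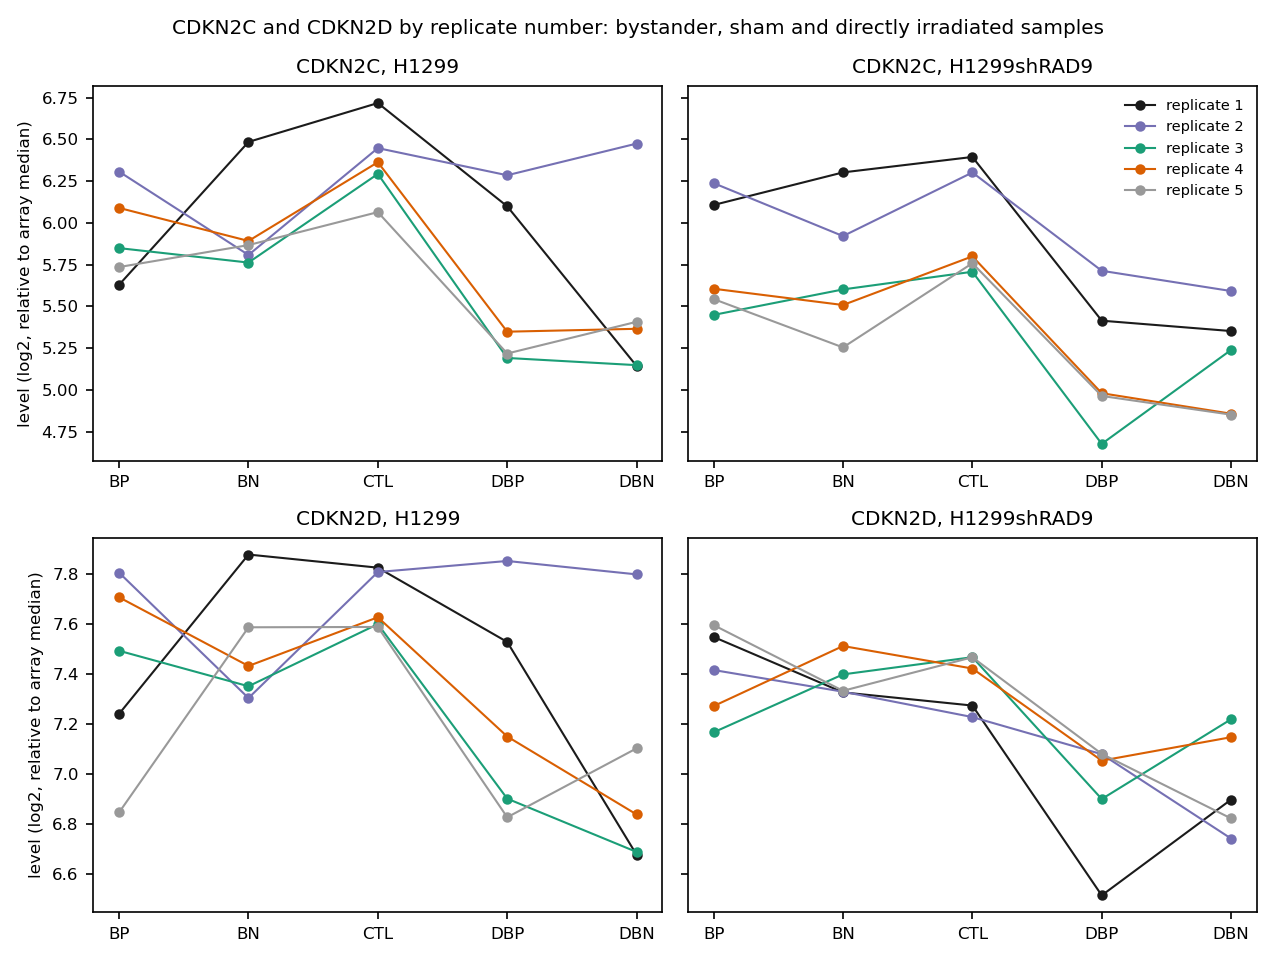
Level of CDKN2C (top) and CDKN2D (bottom) in H1299 (left) and H1299shRAD9 (right) by exposure (x axis; log2 relative to the array median on the y axis), with a line for each replicate number. The H1299shRAD9 lines drop from CTL to DBP and DBN, for CDKN2C from a mean of 5.99 to 5.15 and 5.18, and H1299 replicate 2 stays level.

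*CDKN2A* and *CDKN2B*, neighbours on chromosome 9, were called in none of the comparisons of lines, exposures, interactions or irradiated cells and bystanders. The group means of *CDKN2A* ran from 7.99 in H1299 BP to 8.37 in H1299*shRAD9* CTL, and those of *CDKN2B* from −0.49 in H1299*shRAD9* CTL to −0.05 in H1299 DBN. Their differences lay between −0.29 and 0.31 for *CDKN2A* and between −0.38 and 0.39 for *CDKN2B*. The other *CDKN2A* feature had its H1299*shRAD9* BN samples wholly below the controls, at −0.23 (95% CI −0.41 to −0.04, adjusted p = 0.285), a difference that did not pass the test.

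*CDKN1B* gave different answers at its 2 features. In the controls the coding feature was lower in H1299*shRAD9* (2.22, 3.21, 2.33, 2.48 and 2.97 in H1299 against 1.85, 1.66, 1.66, 1.79 and 2.15), with a difference of −0.82 (SE 0.20, adjusted p = 0.0172) and no overlap. The brighter feature downstream differed by −0.25 (adjusted p = 0.289). In H1299*shRAD9* DBN the coding feature rose to 2.13, 2.20, 2.37, 2.39 and 2.33, above its own control in 5 of 5 pairs, by 0.46 (SE 0.12, adjusted p = 0.0944). The brighter feature stood at −0.31 (95% CI −0.58 to −0.04, adjusted p = 0.242) in the same arrays. The coding feature stood at 0.42 in BP (adjusted p = 0.108) and at 0.49 in BN (adjusted p = 0.205), and at −0.77 in H1299 DBN (−0.39 without replicate 2). The interaction of line and DBN at this feature was 1.23 (95% CI 0.41 to 2.05, adjusted p = 0.226), or 0.84 without replicate 2. With all 10 groups in one fit this interaction was called (adjusted p = 0.0827). The call of the coding feature in DBN against CTL was lost without replicate 1, 2, 3 or 4 (adjusted p 0.169 to 0.243). It was also lost with 75th percentile scaling (adjusted p = 0.115), quantile normalization (adjusted p = 0.1165) and a filter on arrays above background per group (adjusted p = 0.1095). The same held for no filter (adjusted p = 0.353), all 10 groups in one fit (adjusted p = 0.516), no replicate block (adjusted p = 0.166) and slide as a block (0.28, adjusted p = 0.9989). Its call between the controls was lost without replicate 2 (−0.64) or 4 (−0.85) and with slide as a random block (−0.78), each time by the limit on the unadjusted p.

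The coding feature minus the brighter one moved with the 5′ to 3′ index of the array. Its correlation with the index was r = 0.80 over the 50 arrays, 0.85 over the 25 H1299 arrays and 0.61 over the 25 H1299*shRAD9* arrays, as a description of arrays that share samples, lines and slides. The index of the H1299*shRAD9* controls (−1.54 to −1.48) lay below the group means of all other H1299*shRAD9* groups (−1.42 to −1.37) and that of H1299 CTL (−1.40). It also lay below every exposed H1299*shRAD9* array, the lowest of which was at −1.47. H1299 DBN replicate 2 had the widest gap of the *CDKN1B* features, −4.13. For *CDKN3*, the 5′ feature minus the 3′ feature had r = 0.63 with the index. The part of the index in the results of *CDKN1B* and *CDKN3* was not tested. Nor was its part in the other comparisons of H1299*shRAD9* with CTL, that of *CDKN2C* included.

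**Figure D5:**
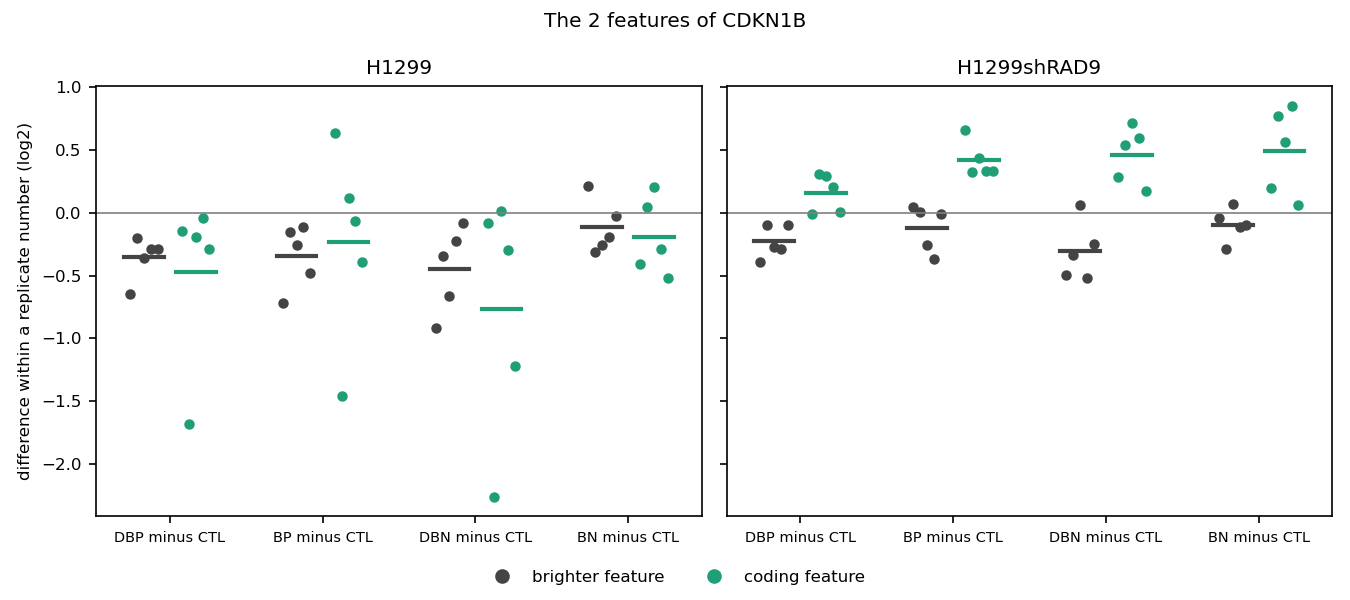
Difference between an exposed sample and the CTL sample of the same replicate number (log2, y axis) for the brighter (dark) and the coding (green) feature of CDKN1B in H1299 (left) and H1299shRAD9 (right); bars are means of 5. In H1299shRAD9 DBN the green mean is 0.46 and the dark mean −0.31, and the lowest green points in H1299 DBP, BP and DBN are those of replicate 2.

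The genes around the inhibitors were counted in 4 lists. Of 13 cyclins and CDKs, 7 were tested, and in the controls 1 was higher and 1 lower in H1299*shRAD9*: *CDK6*, the INK4-sensitive kinase, by 0.64 (SE 0.12, adjusted p = 0.0066), and *CCND2*, a D-type cyclin that partners it, by −2.44 (SE 0.33, adjusted p = 0.000793). *CCND2* was lower in each of the exposures as well, between −2.71 and −1.48, and *CDK6* higher in BP (0.63) and BN (0.58). Without a call, *CDK6* stood higher by 0.53 in DBP and 0.66 in DBN. Of 10 regulators of the inhibitor genes, 5 were tested. *FOXO1*, a factor known to activate *CDKN1B*, was lower in the controls, at −0.97 (SE 0.13, adjusted p = 0.000706) and in all 4 exposures, and *MYC*, known to hold down *CDKN1A* and *CDKN2B*, was higher in the controls by 0.86 (SE 0.23, adjusted p = 0.0228), in DBP (0.98) and in BP (0.71). Without a call, *MYC* stood higher by 1.17 in DBN and 0.58 in BN. None of the 4 tested genes of the RB and E2F list (10 genes) or of the 4 tested of the list on turnover of the inhibitor proteins (9 genes) was called. No gene of these lists was called against CTL, in the interactions or between irradiated cells and bystanders. The share of all features called in each comparison is given above.

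The features most alike to each member were taken from up to 11633 others by the correlation over the 50 arrays, which share lines, exposures and slides. *CDKN1C* lay nearest to *C1orf54* (r = 0.92), *CYS1* (0.90) and *NUPR1* (0.89), *CDKN2D* to *C1orf96* (0.91), *TRIM59* (0.87) and *HMGB2* (0.87), and *CDKN1B* to *SRGAP2P1* (0.87), *PPM1B* (0.83) and *DACH1* (0.82). *CDKN2C* lay nearest to *NDC80* (0.82), *C11orf95* (0.81) and *HYLS1* (0.81). The nearest to *CDKN1A* was *SLC2A3* (0.66) and to *CDKN2B* *CYP39A1* (0.67). Among the members the pair of *CDKN1B* and *CDKN2C* (r = 0.77), that of *CDKN2C* and *CDKN2D* (0.75) and that of *CDKN1B* and *CDKN2D* (0.70) were most alike over all arrays, and *CDKN1A* against *CDKN2C* was at −0.27. With the group means removed the first of these were 0.72, 0.55 and 0.60, and *CDKN2A* and *CDKN2D*, at 0.45 over all arrays, were most alike at 0.77.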

How the data were processed

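RNA of 50 samples was hybridized to 1-colour Agilent 4x44K arrays. Per the file headers, the authors' scanner files hold background-corrected processed intensities from Feature Extraction 11.5.1.1, with hg19 probe positions. The authors' own table of log2 values, deposited after median normalization, served as an alternative. Here, outlier spots were left out, spots of a probe were averaged, and log2 intensities were centred on the array median. A feature was kept if it was flagged dim or as an outlier on fewer than 25% of the arrays and if it differed 1.3-fold from its median in 20% of the arrays. Groups were compared with limma 3.58.1 in R 4.3.3 (lmFit and eBayes, Benjamini-Hochberg adjustment over all features). Lines were compared unpaired; other comparisons had the replicate number as a block, since the methods use a paired test of matched samples. Same-numbered H1299*shRAD9* samples deviated together from their group means (lowest correlation with CTL 0.206), those of H1299 less so (lowest −0.21 in BP). Of the 5 samples in each exposed H1299*shRAD9* group, the control with the same number was the closest for 2 in DBP and BN and 3 in BP and DBN. The number of arrays limits the precision. The members, gene lists and tests were chosen with earlier results of these data known. The 5′ to 3′ index was added later. Probe sequences came from the scanner files and promoters from RefSeq. Code was tested on simulated data. Alternatives covered scaling, background, filters, blocks, a random-variance test and each replicate left out.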

Additional observations from a re-analysis of the deposited data

Results flagged for a closer look

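In each group of 5 samples, the highest or lowest value of a gene was compared with its neighbour by the Dixon ratio, and chance alone marks about 1 group in 20. In 6 groups of the 80 tested, 1 sample lay far from the others. *CDKN1A* read 0.29 in H1299 BP replicate 3, where the next value was −0.37, and −0.64 in H1299*shRAD9* BN replicate 3, where the next was −1.30. *CDKN2A* read 8.98 in H1299 DBN replicate 2 (next 8.22) and 7.91 in H1299*shRAD9* DBP replicate 1 (next 8.24). *CDKN2C* read 6.47 in H1299 DBN replicate 2 (next 5.41) and 6.48 in H1299 BN replicate 1 (next 5.89). H1299 DBN replicate 2 had the lowest mean correlation with its own group (0.934) and a 5′ to 3′ index of −1.61, and their part in these values was not tested.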

How the results depend on the processing

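The call of *CDKN1C* between the controls was unchanged under every alternative tried, with differences of the same sign. Since no slide held controls of both lines, none of these alternatives could part line from slide. Counts of members called moved as follows. With all 10 groups in one fit they became 1 (from 2) between the controls, where quantile normalization gave 3 by adding *CDKN2D* and normexp gave 2 with *CDKN2D* in place of *CDKN1A*, and they became 2 (from 1) in H1299*shRAD9* DBP, 1 and 3 (from 0) in H1299 DBP and DBN, 0 (from 1) between lines in BP and 1 (from 0) between lines in DBN. In H1299*shRAD9* DBP the count was 2 under 75th percentile scaling, quantile normalization and the authors' values, and 0 with no filter. In DBN it was 2 without the 1.3-fold criterion and 0 with no filter. For DBP against BP in H1299*shRAD9* it was 1 (from 0) under 75th percentile scaling, normexp, no 1.3-fold criterion, no filter and the authors' values. Between lines in DBP it was 0 (from 1) with normexp or no filter, in DBN 1 with the authors' values, and in BN 1 with 75th percentile scaling and 2 with the authors' values (both from 0).

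Without the replicate block the H1299*shRAD9* DBP and DBN counts were 0, and 14 and 108 features were called in place of 217 and 583. With the replicate block added between lines, where same-numbered samples did not deviate together (mean correlation −0.05 to 0.09), the count was 0 in DBP and 1 each in DBN and BN. The pairing changed no other count of members. With slide as a block, which rests on the few slides that hold both groups, the H1299*shRAD9* DBP and DBN counts were 0 (3 and 0 features called), and the H1299 DBN count was 1 (497 features in place of 2). The slide block was not run for the 4 comparisons of lines within an exposure, where it could not be fitted. Leaving out 1 replicate gave 0 to 1 members in H1299*shRAD9* DBP (0 to 735 features), in DBN, and between lines in DBP, BP and BN.

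The number of all features called moved by over 1.5 times in places. Between the controls it was 1893 and became 2868 with no filter, 1034 with slide as a random block and 899 to 1074 without replicate 3, 4 or 5. With all 10 groups in one fit, H1299*shRAD9* DBP, BP and DBN gave 38, 0 and 148 in place of 217, 285 and 583, and H1299 DBP and DBN gave 122 and 245 in place of 7 and 2. No filter gave 0 in these H1299*shRAD9* comparisons, 75th percentile scaling 358 and quantile normalization 350 in DBP, and the authors' values 103 in BP and 309 in DBN. Between lines, normexp gave 229 in DBP, 388 in DBN and 8 in BN in place of 835, 618 and 1031, and no filter gave 6673 in DBP.

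Of the counts under alternatives, 287 were equal to the reported one or within 1.5 times of it, 22 were weaker and 23 stronger. Most comparisons had 0 members called, where a count that stayed 0 was taken as equal and could not become weaker. The tally therefore says little of how stable the calls were. For the values of single called members, the call was kept under 87 alternatives and lost under 37, and none reversed a sign. The median of all features between the controls was 0.10, and 0.09, 0.06, 0.0036 and 0.0034 under 75th percentile scaling, quantile normalization, normexp and the authors' values, which moved the split of called features from 955 higher and 938 lower to 466 and 1187 with normexp and 518 and 901 with the authors' values. The dim *CDKN1A* signal limits what can be said of its level in H1299*shRAD9*, and with 5 samples a group the calls of *CDKN2C* turn on single replicates.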
